A study of Mus musculus with 14 samples.

Results

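Integrins, laminins, nidogens and nephronectin form the adhesion system through which a cell binds its basement membrane and pericellular matrix. Their transcripts were followed here in cultured skeletal cell clones with and without p53. The members were chosen by name: 13 integrin alpha genes, 8 integrin beta genes, 10 laminin genes, 2 nidogen genes and Npnt, which makes 34 of the 30503 genes in the count table. Of these, 32 passed the filter on low counts and were tested, and Itgb6 and Lamc3 did not pass.

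An integrin is a pair of an alpha and a beta chain that spans the cell membrane and couples matrix ligands to the actin cytoskeleton. A laminin is a cross-shaped trimer of an alpha, a beta and a gamma chain. Nidogens link laminin to type IV collagen, and nephronectin is a matrix protein first known as a ligand of the integrin that pairs Itga8 with Itgb1. In bone, integrins of the Itgb1 group serve as collagen and fibronectin receptors of osteoblast lineage cells, and Itga10 and Itga11 are collagen receptors of cartilage and of mesenchymal cells.

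Bulk RNA-seq was performed on 14 clones of tdTomato+ bone marrow skeletal cells from mouse femurs, each library holding 1 clone. All mice carried Fgfr3-creER and R26R(tdTomato/+) and were pulsed with tamoxifen at postnatal day (P) 21, so that Fgfr3-creER chose the cells that were marked. The 5 Fgfr3-WT clones were isolated at P23 and their genotype lists no floxed Trp53 allele. The 5 Fgfr3-p53 cKO (P28) and the 4 Fgfr3-p53 cKO (P4M) clones also carried Trp53fl/fl and were isolated at P28 and at 4 months. Fgfr3-WT and P28 clones were at passage 8 and P4M clones at passage 6 to 8, and the labels do not say which clones came from the same mouse. P values therefore measure the spread between clones, which had been kept in culture for many passages. An equal passage number does not mean an equal time in culture. The paper reports that cKO clones grew faster and survived serial passage more often than wild-type clones. Time in culture, survival over passages and age at isolation thus went with genotype in the comparisons with Fgfr3-WT. Their part in the results was not tested.

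Total counts lay between 25688946 and 52857424 per clone. CPM below stands for counts scaled to library size after TMM correction, per 1000000, and a call stands for an adjusted p under 0.05 over 17358 genes. Trp53, the deleted gene, lay at 49.9 to 68.2 CPM in Fgfr3-WT clones and at 1.72 to 2.84 CPM in cKO clones. Sample names of all Fgfr3-WT libraries carry the number 1303 and those of all cKO libraries 2963. What this number stands for is not given by the labels. Genotype and this number cannot be told apart in the comparisons with Fgfr3-WT, whereas P4M and P28 share 1 number. The summed CPM of 8 osteoblast markers was 1044 to 3833 in Fgfr3-WT, 15202 to 22621 in P28 and 9964 to 54996 in P4M clones. Col1a1, the main bone collagen gene, made up most of it in the cKO clones, at 14680 to 22012 CPM in P28 and 7377 to 50643 CPM in P4M. Of the 8 genes, 3 were called higher in P28 and 6 in P4M, and Spp1 (osteopontin) was called lower in both, from a mean of 2109 CPM in Fgfr3-WT to 416 and 834 CPM. The summed CPM of 7 chondrocyte markers was 1473 to 25339, 190 to 1510 and 39.6 to 625, in the same order. Of the 7 genes, 5 were called lower in P28 and 5 in P4M. Matn3 was called higher in P28 (edgeR, 2.38 on the log2 scale, adjusted p = 0.0304), from a mean of 0.250 CPM in Fgfr3-WT to 1.36 CPM. These osteoblast and chondrocyte markers moved with the groups. The summed CPM of 6 reticular markers overlapped, at 145 to 618, 480 to 710 and 199 to 600 in the same order. Of the 5 tested, Lepr was called higher in both cKO groups, from a mean of 0.0790 CPM in Fgfr3-WT to 6.75 and 53.4 CPM. Ebf3 was called higher in P28 only, and Foxc1 lower in both. The part of these skeletal markers in the results below was not tested. Of the markers of other cells, Ptprc (blood) was at most 0.154 CPM, Cdh5 (endothelium) at 0 and Epcam (epithelium) at most 0.0596 CPM. Cdh1, the epithelial cadherin and the only gene of the 7 in the epithelial list to be tested, was at 0 in all 5 Fgfr3-WT clones, at 0.0256 to 6.26 CPM in P28 and at 0.198 to 3.53 CPM in P4M, and was called higher in both (adjusted p = 0.0119 and 0.013). The summed CPM of the endothelial list was nevertheless 7.29 to 250 in P4M clones, beside 1.07 to 3.78 in Fgfr3-WT and 0.743 to 5.69 in P28. Its 2 tested genes, Kdr and Vwf, were both called higher in P4M against Fgfr3-WT. There edgeR put the log2 fold changes at 5.56 (adjusted p = 0.00224) and 5.16 (adjusted p = 0.00335). Kdr was also called higher in P28 against Fgfr3-WT (3.61, adjusted p = 0.019), and Vwf in P4M against P28 (6.07, adjusted p = 0.0135). Of 5 Schwann cell markers tested, 1 was called higher and 2 lower in each cKO group against Fgfr3-WT. Of 2 skeletal muscle markers tested, 1 was called higher in P28 and 0 in P4M. The part of these lists in the results was not tested. In bulk RNA, fewer cells of a type and less RNA per cell cannot be told apart.

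In P28 against Fgfr3-WT clones, 12 members were higher and 2 were lower among the 32 tested, which is 43.8% called beside 38.9% of all genes tested (percent called at an FDR of 0.05). By direction, 19.2% of all genes were called higher and 19.7% lower. In P4M against Fgfr3-WT clones, 9 members were higher and 5 were lower, also 43.8%, beside 45.9% of all genes (22.3% higher and 23.6% lower). The share of members called in either direction was thus near the background in both comparisons. The called members leaned to higher, with 12 higher and 2 lower in P28 and 9 higher and 5 lower in P4M. All genes called split nearly evenly between the directions in both comparisons. Whether the lean of the members differs from the background was not tested. The median log2 fold change of the members was 0.44 in P28 and 0.29 in P4M, beside -0.02 and -0.06 for all genes. Both comparisons use the same Fgfr3-WT clones. Called higher in both were Npnt, Nid1, Itga9, Lamc1 and Itgb1, and called lower in both were Itgb2 and Itgb5. In P4M against P28, 4 members were called lower (12.5% beside 7.22% of all genes in either direction and 3.88% lower), and the median of the members was -0.68 beside -0.01. None was called higher there in the main edgeR fit (3.34% of all genes were), with 5 at an unadjusted p under 0.05 (Itga6, Itga10, Itgb1, Lama1 and Lamb3). Other settings did call members higher. An edgeR fit of the 2 groups alone called 4 (Itga6, Itga10, Itgb1 and Lamb3), and 1 with at least 10 counts in every clone called 2 (Itga6 and Lamb3). Fits that left out 1 clone called 0 to 3, with 3 in the fit without Fgfr3-WT clone 1. DESeq2 called 2 (Itga6 and Lamb3), and limma with either pseudocount 3 and 2. More members were called lower in some settings as well. DESeq2 called 8 lower, adding Itga2, Itga2b, Itga3 and Lama2. An edgeR fit of the 2 groups called 8 lower, adding Itga2, Itga2b, Itga11 and Nid1. Both limma fits called 7 lower, with Itga2b and Itga3 among them. Fits that left out 1 clone called 3 to 5 lower.

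**Figure D1:**
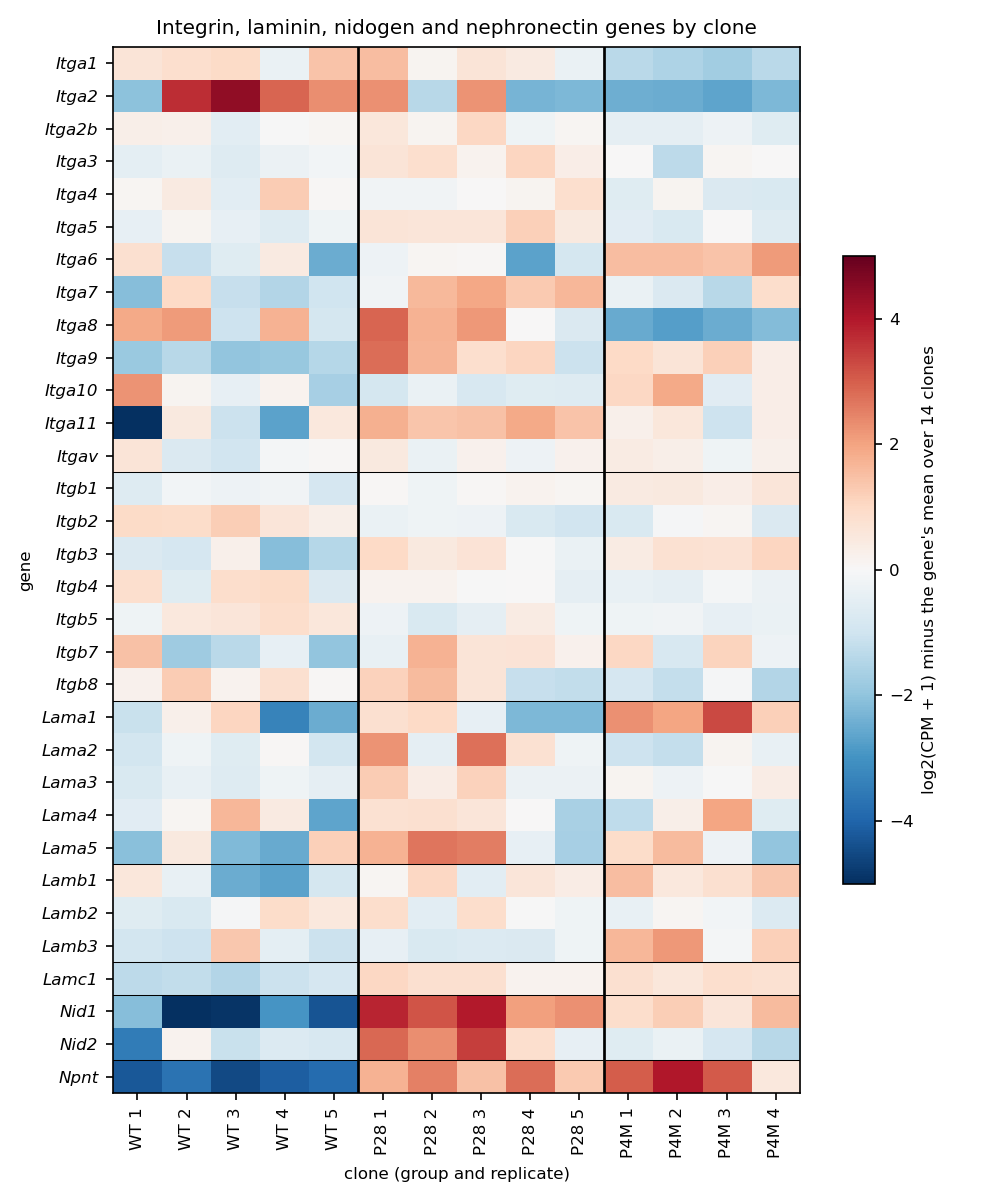
Heat map of the 32 tested members (rows) in the 14 clones (columns, group and replicate number). Colour is log2(CPM + 1) minus the gene's mean over all 14 clones, cut at 5 in either direction. Npnt and Nid1 lie below their means in all 5 Fgfr3-WT clones, and Itga8 lies below its mean in all 4 P4M clones.

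**Figure D2:**
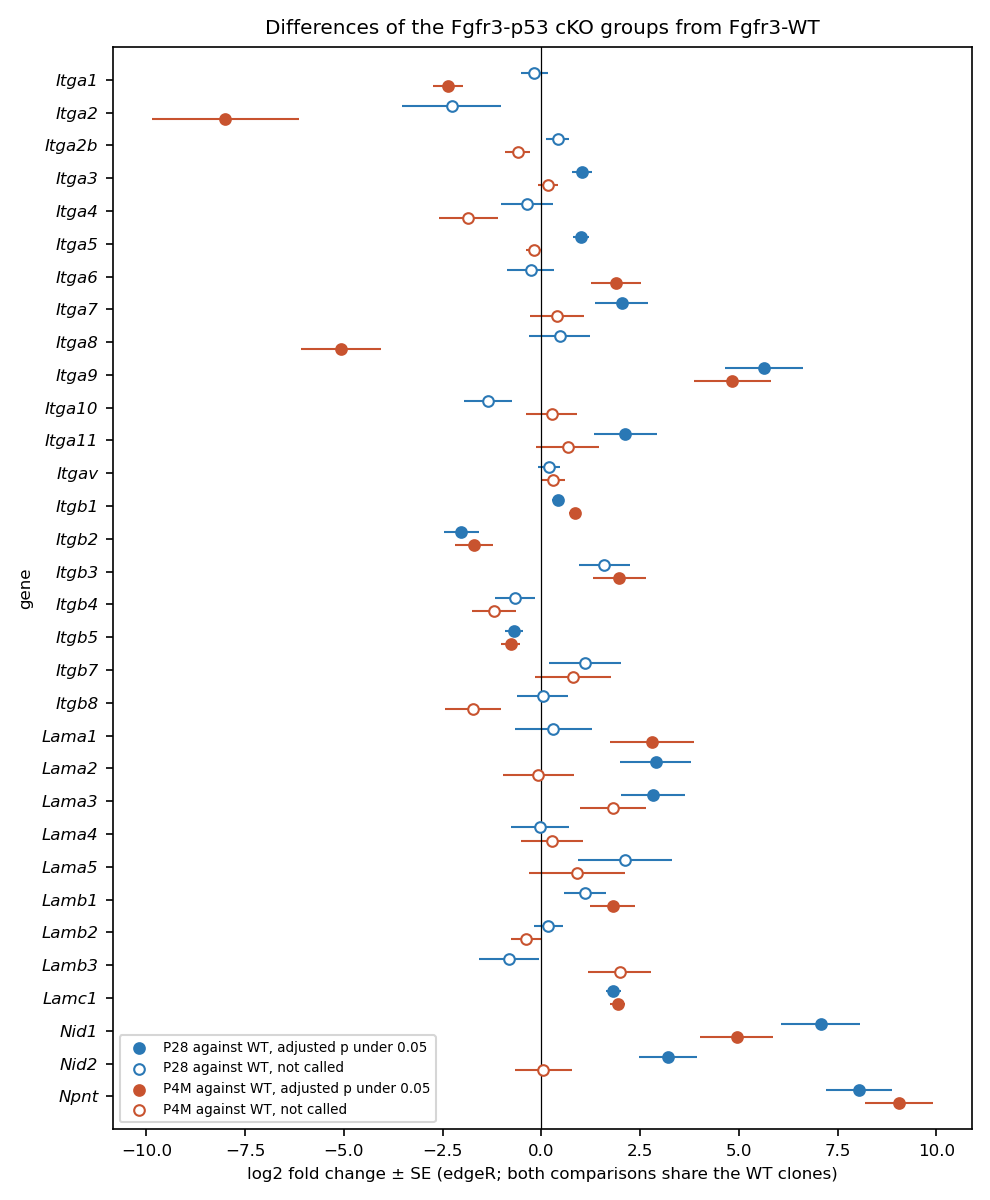
Log2 fold changes with their SE (x axis) of the 32 tested members (y axis), for P28 and P4M each against the same 5 Fgfr3-WT clones. Filled points have an adjusted p under 0.05. Npnt and Nid1 stand farthest to the right in P28, and Itga2 and Itga8 farthest to the left in P4M.

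The promoters of 3 members are shown because Npnt and Nid1 had the largest rises in P28 and Itga8, which fell in P4M, encodes a receptor chain for nephronectin. RefSeq promoter sequences (GRCm38.p6, 250 bases before to 50 after the start) were on hand for 23 of the 34 members, and not for Lamc1 and Nid2. Searched on both strands were the TATA box (TATAAA), the CCAAT box, the GC box (GGGCGG), the AP-1 motif (TGANTCA) and the p53 decamer, a 10-base unit of which a full p53 response element holds a pair, and a hit is in capitals. Among 32851 promoters of the same length, 13.6% held TATAAA, 37.4% CCAAT, 35.7% GGGCGG, 7.81% TGANTCA and 8.36% the p53 decamer. The sequences read 5′ to 3′ on the strand of the gene, from chr3:132950242-132950541 (minus strand), chr13:13437352-13437651 (plus strand) and chr2:12301895-12302194 (minus strand).
Npnt: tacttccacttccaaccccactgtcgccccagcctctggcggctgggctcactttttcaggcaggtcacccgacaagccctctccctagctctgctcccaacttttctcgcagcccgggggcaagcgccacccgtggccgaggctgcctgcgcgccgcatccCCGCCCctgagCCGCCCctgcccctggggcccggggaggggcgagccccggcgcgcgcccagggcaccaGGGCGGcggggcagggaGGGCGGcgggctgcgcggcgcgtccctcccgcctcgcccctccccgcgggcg
Nid1: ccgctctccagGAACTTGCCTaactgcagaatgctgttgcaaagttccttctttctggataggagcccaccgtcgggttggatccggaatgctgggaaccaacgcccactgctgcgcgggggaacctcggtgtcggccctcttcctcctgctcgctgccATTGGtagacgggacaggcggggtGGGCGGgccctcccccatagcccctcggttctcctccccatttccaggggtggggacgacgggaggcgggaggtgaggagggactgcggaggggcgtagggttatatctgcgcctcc
Itga8: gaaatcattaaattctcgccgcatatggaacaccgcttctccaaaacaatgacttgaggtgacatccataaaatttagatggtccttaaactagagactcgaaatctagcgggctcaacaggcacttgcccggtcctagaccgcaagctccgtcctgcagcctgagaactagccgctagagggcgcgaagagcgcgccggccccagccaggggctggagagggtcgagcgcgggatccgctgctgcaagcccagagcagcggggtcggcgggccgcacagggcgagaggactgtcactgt
The Npnt window held GGGCGG at 4 places, 2 on each strand, and was 76.7% G and C, where the median of all promoters was 52.7%. The Nid1 window held CCAAT once on the opposite strand, GGGCGG once and a single p53 decamer. The Itga8 window held none of these letters. A match is a description of the letters in this window and not a binding site, and the absence of a match says nothing of a factor.

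Npnt, which encodes nephronectin, showed the largest fold changes among the members in both comparisons with Fgfr3-WT. In Fgfr3-WT clones 1 to 5 it stood at 0.195, 0.727, 0, 0.313 and 0.554 CPM, which is 50 counts over all 5 clones. The clone at 0 allows up to 0.121 CPM (3 counts), a limit for counting error alone. The P28 clones held 73.6, 129, 60.5, 156 and 54.4 CPM, and the P4M clones 181, 365, 186 and 31.3 CPM. Every cKO clone therefore lay above every Fgfr3-WT clone, and the 2 cKO groups overlapped. edgeR put the log2 fold change at 8.04 (SE 0.828, adjusted p = 3.09e-05) in P28 and 9.05 (SE 0.865, adjusted p = 1.57e-05) in P4M. P4M and P28 did not pass the test against each other (1.01, SE 0.618, adjusted p = 0.321). Npnt (ENSMUSG00000040998) lies on the minus strand of chr3:132881745-132950291 (GRCm38), and counts refer to its exons.

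Nid1 and Nid2, which encode the laminin and collagen linkers, both rose in P28, and Nid2 did not stay high in P4M. Nid1 (chr13:13437551-13512269, plus strand) stood at 8.60, 0.0765, 0.405, 4.35 and 1.11 CPM in Fgfr3-WT clones. Its levels were 579, 374, 649, 173 and 201 CPM in P28 and 75.7, 98.5, 63.4 and 126 CPM in P4M clones. The 3 groups did not overlap, with P28 highest and Fgfr3-WT lowest. The log2 fold changes against Fgfr3-WT were 7.07 (SE 1.0, adjusted p = 0.000228) in P28 and 4.95 (SE 0.925, adjusted p = 0.00098) in P4M. The step from P28 to P4M missed the threshold (-2.12, SE 0.864, adjusted p = 0.142). It was called in the fit of the 2 groups alone and by limma on log2(TPM + 1).

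Nid2 (chr14:19751265-19811787, plus strand) stood at 2.74, 46.5, 18.7, 25.5 and 23.4 CPM in Fgfr3-WT and at 26.9, 32.5, 22.2 and 14.9 CPM in P4M clones. In P28 clones 1 to 5 it held 303, 210, 455, 74.2 and 30.8 CPM. P28 clones 4 and 5 were the low ones, and clone 5 lay within the range of the other groups. Sp7, the osteoblast transcription factor, was at 293 and 290 CPM in those 2 clones and at 3.38 to 9.78 CPM in P28 clones 1 to 3. In Fgfr3-WT it was at 0 to 0.191 CPM in clones 1 to 4 and at 38.7 CPM in clone 5. The P4M clones held 132 to 666 CPM of Sp7. P28 clones 4 and 5 were also the lowest of P28 for Itga8, Lama1, Lama3, Lama5, Itgb8, Nid1 and Lamc1, among other members. Npnt, Itga5 and Itga11 did not split this way. Any tie of Sp7 to the level of Nid2 or of these members was not tested. The log2 fold change of Nid2 was 3.20 (SE 0.736, adjusted p = 0.00438) in P28 against Fgfr3-WT and 0.05 (SE 0.719, adjusted p = 0.965) in P4M against Fgfr3-WT. P4M differed from P28 by -3.15 (SE 0.803, adjusted p = 0.0334). That last call was lost in 7 of the 14 fits that each leave out 1 clone, namely those without P4M clone 1, 2, 3 or 4 or P28 clone 1, 2 or 3, with adjusted p up to 0.092, and with no filter (0.065). Nid2 shares 437 exon bases with Rtraf on the opposite strand and Nid1 143 with the antisense gene Gm48682. The library kit does not mark strand, so such reads cannot be assigned by strand.

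**Figure D3:**
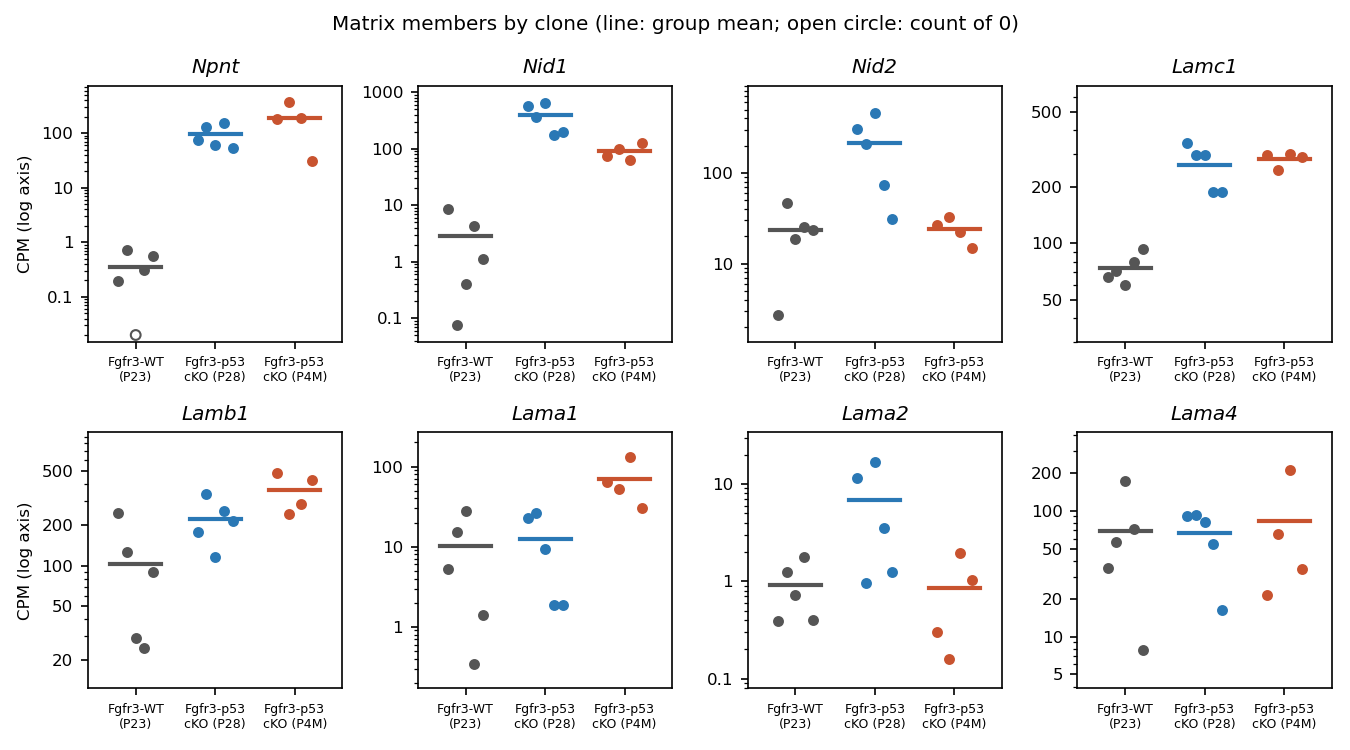
CPM on a log axis of 8 matrix members in each clone, by group (5, 5 and 4 points; the line is the group mean and an open circle is a count of 0, drawn at an arbitrary low place). All P28 and P4M points of Npnt, Nid1 and Lamc1 lie above all Fgfr3-WT points, whereas the groups of Lama4 overlap.

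Lamc1, the gamma chain of most laminins, rose in both cKO groups. It stood at 66.6, 71.2, 59.9, 79.7 and 92.8 CPM in Fgfr3-WT, at 343, 293, 294, 187 and 188 CPM in P28, and at 296, 246, 298 and 286 CPM in P4M clones. All cKO clones were above all Fgfr3-WT clones, and P28 clones 4 and 5 were the lowest of the cKO clones. On the log2 scale, the change came to 1.82 (SE 0.189, adjusted p = 3.09e-05) in P28 and 1.93 (SE 0.197, adjusted p = 2.14e-05) in P4M. Lamc1 (chr1:153218922-153332786, minus strand) had smaller standard errors than the other called laminins. The P4M clones did not pass the test against P28 (0.11, SE 0.194, adjusted p = 0.769).

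Among the laminin beta genes, Lamb1 was called higher in P4M, and neither Lamb2 nor Lamb3 was called in any comparison. Lamb1 was at 103 ± 90.0 CPM (SD, n = 5) in Fgfr3-WT, 220 ± 83.6 CPM (SD, n = 5) in P28 and 360 ± 114 CPM (SD, n = 4) in P4M. In P4M against Fgfr3-WT it differed by 1.81 (SE 0.567, adjusted p = 0.0195) and in P28 by 1.10 (SE 0.537, adjusted p = 0.122) on the log2 scale. The difference in P28 was called in both limma fits and without Fgfr3-WT clone 1. The highest Fgfr3-WT clone (245 CPM) lay above the lowest P4M clone (241 CPM), and without P4M clone 1 the adjusted p was 0.0508. Lamb2 lay between 228 and 727 CPM over all 14 clones, and the groups overlapped. Lamb3, a chain of epithelial laminin, was at 1.72 to 12.2 CPM in P4M clones and at 0.693 to 1.51 CPM in P28 clones, and the difference missed the threshold (adjusted p = 0.0558).

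Of the 5 laminin alpha genes, Lama2 and Lama3 were called higher in P28 and Lama1 in P4M, and Lama4 and Lama5 were not called. Lama1, the alpha chain of the early embryonic laminin, was at 10 ± 11.5 CPM in Fgfr3-WT (SD, n = 5), 12.4 ± 11.5 CPM in P28 (SD, n = 5) and 69.9 ± 44.1 CPM in P4M (SD, n = 4). The lowest P4M clone (30.3 CPM) lay above the highest Fgfr3-WT clone (27.8 CPM) and the highest P28 clone (26.3 CPM). Against Fgfr3-WT, edgeR gave 2.80 on the log2 scale (SE 1.06, adjusted p = 0.0452), and the call was lost in 9 of 14 leave-one-out fits, with adjusted p up to 0.116 without P4M clone 3, with no filter (0.0759) and in the fit of the 2 groups alone (0.0556). P4M against P28 gave 2.50 (SE 1.05, adjusted p = 0.154).

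Lama2, the alpha chain of muscle and nerve basement membranes, was at 0.908 ± 0.596 CPM in Fgfr3-WT (SD, n = 5), 6.79 ± 7.05 CPM in P28 (SD, n = 5) and 0.857 ± 0.815 CPM in P4M (SD, n = 4). Its log2 fold change in P28 was 2.89 (SE 0.896, adjusted p = 0.0212). The groups overlapped, and without P28 clone 3, which held 16.9 CPM, the adjusted p was 0.064. Lama3, the alpha chain of epithelial laminin, stood at 0, 0.306, 0.0809, 0.427 and 0.237 CPM in Fgfr3-WT, which is 31 counts in all. The P28 clones held 2.99, 1.17, 2.74, 0.383 and 0.359 CPM and the P4M clones 0.831, 0.387, 0.632 and 1.15 CPM. P28 clones 4 and 5 lay below the highest Fgfr3-WT clone. The resulting log2 difference was 2.83 (SE 0.813, adjusted p = 0.0145) in P28. Lama2 and Lama3 reached at most 16.9 and 2.99 CPM, and each shares exon bases with an antisense gene.

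Levels of different genes were compared per transcript length, as the share of each chain in the TPM of its family. Lama4, a chain of mesenchymal and vascular laminins, led the alpha genes in 4 of 5 Fgfr3-WT and in 5 of 5 P28 clones, with 74.3% ± 23.3 (SD, n = 5) and 69.2% ± 11.8 (SD, n = 5). In P4M clones Lama4 held 44.7% ± 15.1 (SD, n = 4) and Lama1 49.1% ± 13.3 (SD, n = 4), and each of them led in 2 clones. The share of Lama1 was 1.23% to 20.9% in Fgfr3-WT, 3.77% to 18.1% in P28 and 39.0% to 67.9% in P4M clones, so that P4M did not overlap with the others. Fgfr3-WT clone 5 was led by Lama5, at 49.1%. Among the beta genes Lamb2 led in all Fgfr3-WT and P28 clones, and in P4M clones Lamb1 held 45.3% ± 13.1 (SD, n = 4) against 17.7% ± 16.0 (SD, n = 5) in Fgfr3-WT. Lamc1 made up at least 99.9% of the 2 gamma members in every clone. These shares are descriptions without a test.

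**Figure D4:**
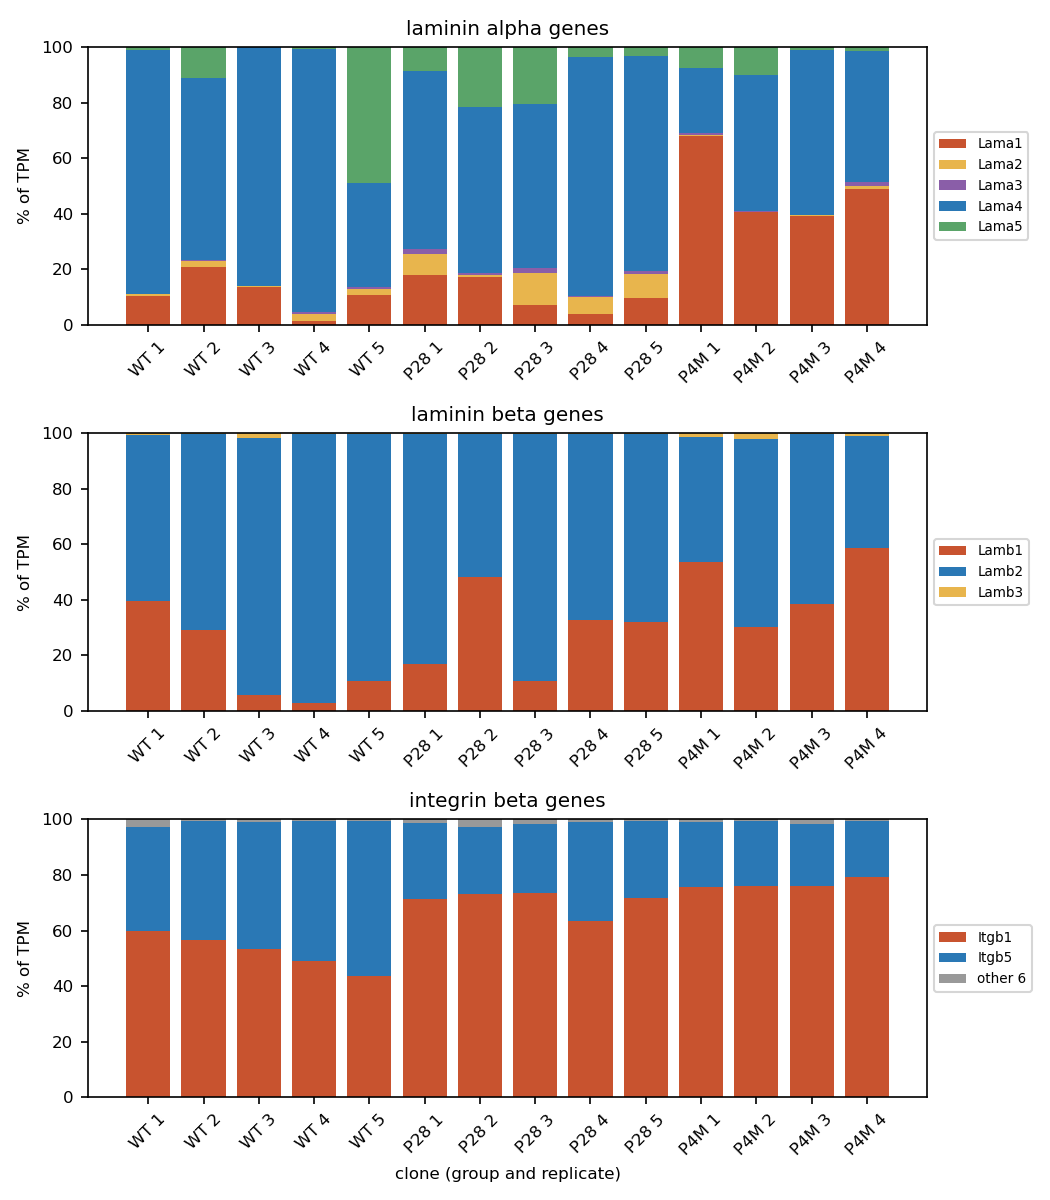
Share of each chain in the summed TPM (per cent, y axis) of the laminin alpha, laminin beta and integrin beta members, by clone (x axis, group and replicate). Lama1 takes 39.0% to 67.9% of the alpha TPM in P4M clones and at most 20.9% in the other clones. Itgb1 takes 43.8% to 59.8% of the beta TPM in Fgfr3-WT clones and 63.4% to 79.4% in cKO clones.

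Itga1 and Itga2, the collagen receptors of many stromal and epithelial cells, were lower in P4M, while Itga11 was higher in P28. Itga1 (chr13:114953096-115101964, minus strand) stood at 74.8, 84.4, 91.9, 37.7 and 129 CPM in Fgfr3-WT and at 138, 52.4, 74.7, 65.6 and 37.2 CPM in P28 clones. The P4M clones held 17.9, 15.8, 13.6 and 17.8 CPM, below every other clone. P4M differed from Fgfr3-WT by -2.36 (SE 0.388, adjusted p = 0.000429) and from P28 by -2.17 (SE 0.385, adjusted p = 0.00895) on the log2 scale. P28 against Fgfr3-WT gave -0.18 (SE 0.339, adjusted p = 0.7). Itga1 shares 451 exon bases with the protein-coding gene Gm49395 on the same strand, and only unambiguously mapped reads were counted.

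Itga2, the alpha chain of the second of these collagen receptors, lies beside Itga1 on chromosome 13 (chr13:114833081-114932100, minus strand). Its Fgfr3-WT clones held 0.619, 85.9, 146, 50.1 and 32.6 CPM, and its P28 clones 32.1, 1.58, 30.9, 0.342 and 0.410 CPM. The P4M clones held 0.231, 0.228, 0.0988 and 0.413 CPM, or 47 counts in all. Fgfr3-WT clone 1 was low, and P28 clones 2, 4 and 5 were low as well. By edgeR, the log2 difference was -8.00 (SE 1.86, adjusted p = 0.00384) in P4M and -2.27 (SE 1.26, adjusted p = 0.171) in P28 against Fgfr3-WT. P4M against P28 gave -5.73 (SE 1.70, adjusted p = 0.0569). That difference was called by DESeq2, in the fit of the 2 groups alone, and without Fgfr3-WT clone 1 or P28 clone 5.

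Itga11 was at 81.2 ± 79.7 CPM in Fgfr3-WT (SD, n = 5), 356 ± 56.1 CPM in P28 (SD, n = 5) and 129 ± 49.9 CPM in P4M (SD, n = 4). The P28 clones, at 310 to 430 CPM, lay above all other clones, which reached at most 171 CPM. The log2 fold change in P28 was 2.13 (SE 0.79, adjusted p = 0.0465), and the call was lost in 10 of 14 leave-one-out fits, with adjusted p up to 0.0903, with no filter on low counts (0.0774) and in the fit of the 2 groups alone (0.0859). Itga11 was the alpha gene with the highest TPM in all 5 P28 clones, with 25.9% ± 2.09 (SD, n = 5) of the alpha TPM, and in no other clone. Itga10 was not called in any comparison, and Fgfr3-WT clone 1, at 533 CPM, stood apart from the other Fgfr3-WT clones at 34.2 to 126 CPM.

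Of the laminin receptors, Itga3 and Itga7 were called higher in P28 and Itga6 in P4M. Itga3 stood at 84.6, 93.1, 76.6, 96.0 and 109 CPM in Fgfr3-WT, at 186, 211, 136, 253 and 149 CPM in P28, and at 120, 46.8, 127 and 121 CPM in P4M clones. All P28 clones were above all other clones. edgeR put the log2 fold change at 1.02 (SE 0.251, adjusted p = 0.00612) in P28 and 0.17 (SE 0.263, adjusted p = 0.617) in P4M, and the difference between P4M and P28 was -0.85 (SE 0.268, adjusted p = 0.0683). That difference was called by DESeq2 and in both limma fits. Itga6 was at 27.6 ± 21.1 CPM in Fgfr3-WT (SD, n = 5), 22.9 ± 12.5 CPM in P28 (SD, n = 5) and 104 ± 25.0 CPM in P4M (SD, n = 4). The P4M clones, at 87.2 to 141 CPM, lay above all others.

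The log2 fold change of Itga6 was 1.90 (SE 0.631, adjusted p = 0.0252) in P4M and -0.27 (SE 0.59, adjusted p = 0.742) in P28. The call in P4M was lost without Fgfr3-WT clone 2 or 3 or P4M clone 4, with adjusted p up to 0.0622. P4M against P28 gave 2.18 (SE 0.635, adjusted p = 0.0542). Itga7, known from muscle, was at 10.1 ± 11.4 CPM in Fgfr3-WT (SD, n = 5), 41.6 ± 17.7 CPM in P28 (SD, n = 5) and 13.3 ± 10.2 CPM in P4M (SD, n = 4). Its log2 fold change in P28 was 2.04 (SE 0.67, adjusted p = 0.0279), the groups overlapped, and the call was lost in 7 of 14 leave-one-out fits, with adjusted p up to 0.0642.

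Itga8, a receptor chain for nephronectin, fell in P4M, the group in which its ligand gene Npnt had its highest mean. Itga8 (ENSMUSG00000026768, chr2:12106632-12301922, minus strand) stood at 32.3, 38.0, 3.36, 29.2 and 3.84 CPM in Fgfr3-WT and at 66.0, 29.3, 38.8, 8.00 and 4.41 CPM in P28 clones. In P4M clones it held 0.577, 0.319, 0.612 and 1.01 CPM, and all of them lay below all other clones. P4M differed from Fgfr3-WT by -5.07 (SE 1.01, adjusted p = 0.00148) and from P28 by -5.52 (SE 1.03, adjusted p = 0.0107) on the log2 scale. P28 against Fgfr3-WT gave 0.46 (SE 0.762, adjusted p = 0.667), and the 2 groups overlapped. Transcripts of both Npnt and Itga8 were thus above 4 CPM in every P28 clone. Fgfr3-WT clones had Itga8 with at most 0.727 CPM of Npnt, and P4M clones had Npnt with at most 1.01 CPM of Itga8. Only this receptor chain was set beside Npnt here. Itga8 shares 346 exon bases with the antisense gene E030013I19Rik, and the kit does not mark strand.

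Itga5, the fibronectin receptor chain, rose in P28 but was not called in P4M against Fgfr3-WT. It stood at 106, 156, 108, 90.0 and 124 CPM in Fgfr3-WT, at 221, 214, 219, 322 and 199 CPM in P28, and at 95.7, 82.6, 144 and 90.4 CPM in P4M clones. All P28 clones were above all clones of the other 2 groups. On the log2 scale, the change came to 1.01 (SE 0.197, adjusted p = 0.00157) in P28 and -0.18 (SE 0.207, adjusted p = 0.512) in P4M, and P4M differed from P28 by -1.19 (SE 0.212, adjusted p = 0.00895). Itgav, the alpha chain of the vitronectin receptors, lay between 135 and 416 CPM and was not called. Itga2b, the platelet chain, was also not called, at 2.76 to 10.8 CPM.

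Itga9, a receptor chain for tenascin and osteopontin, rose from near 0 in both cKO groups. It stood at 0.0652, 0.497, 0, 0.0569 and 0.435 CPM in Fgfr3-WT clones, or 28 counts in all. The P28 clones held 26.2, 11.8, 5.98, 7.27 and 0.845 CPM, and the P4M clones 6.76, 5.17, 7.92 and 3.98 CPM. All cKO clones were above all Fgfr3-WT clones, and P28 clone 5 was the lowest of them. The resulting log2 difference was 5.63 (SE 0.991, adjusted p = 0.000859) in P28 and 4.83 (SE 0.977, adjusted p = 0.00161) in P4M, and the 2 cKO groups gave -0.81 (SE 0.845, adjusted p = 0.588). Itga4, its relative in leukocytes, was at most 3.61 CPM and was not called.

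**Figure D5:**
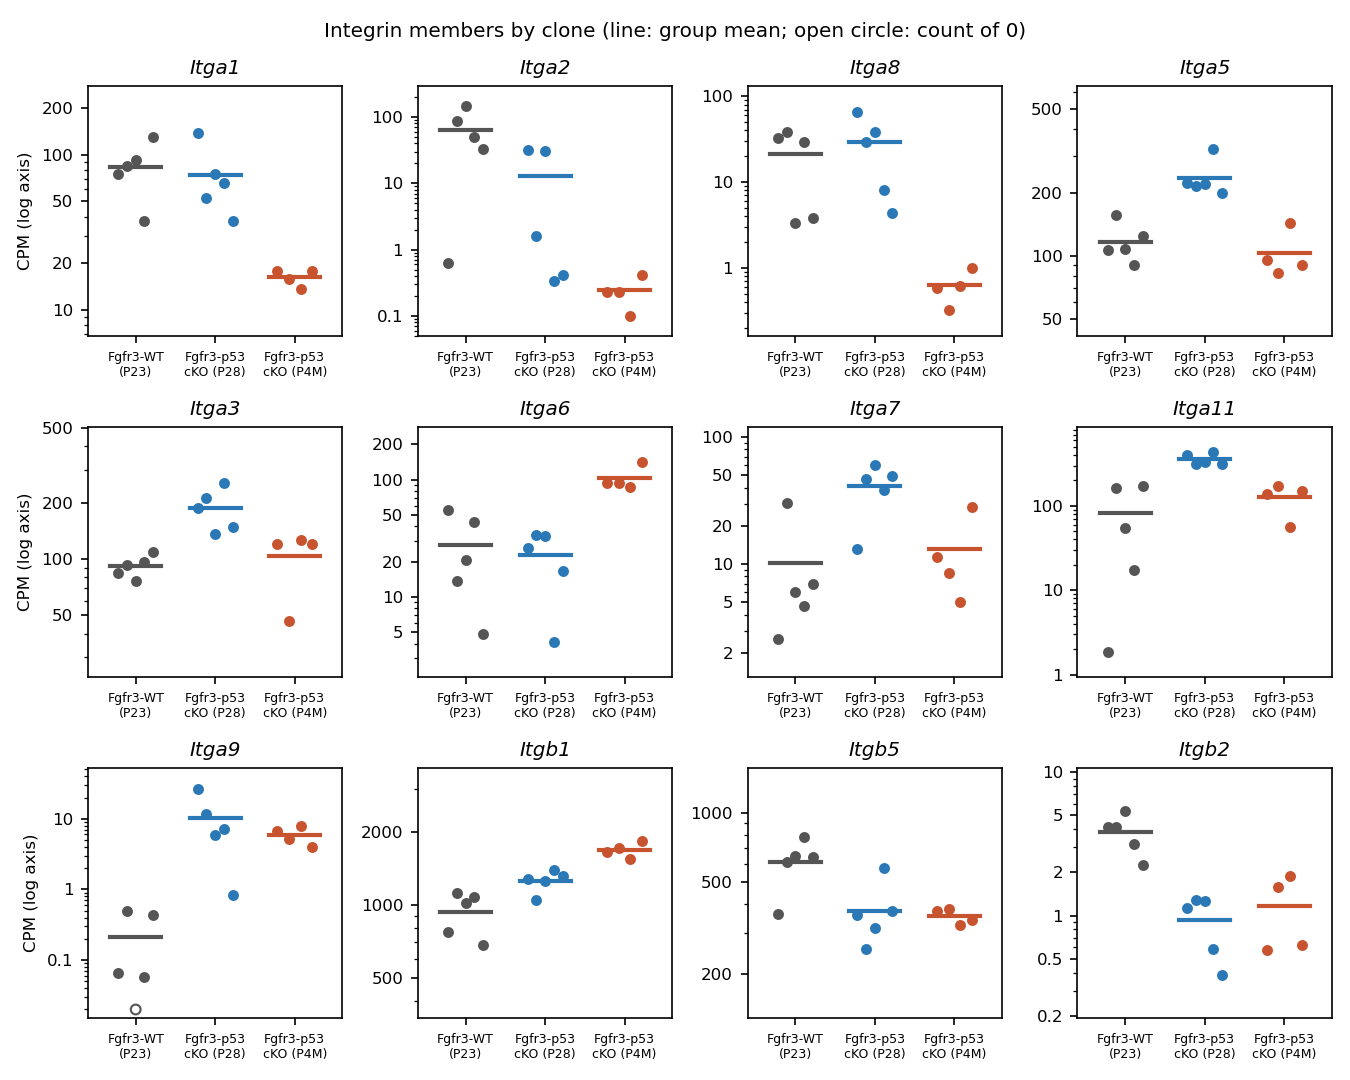
CPM on a log axis of 12 integrin members in each clone, by group (5, 5 and 4 points; the line is the group mean and an open circle is a count of 0, drawn at an arbitrary low place). All 4 P4M points of Itga1 and Itga8 lie below all other points, all 5 P28 points of Itga3, Itga5 and Itga11 lie above all others, and all 4 P4M points of Itga6 lie above all others.

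Among the beta chains, Itgb1, the common partner of the collagen, laminin and fibronectin receptors, was higher in both cKO groups and Itgb5 was lower. Itgb1 (chr8:128685654-128733200, plus strand) stood at 775, 1119, 1018, 1080 and 680 CPM in Fgfr3-WT, at 1283, 1046, 1257, 1389 and 1310 CPM in P28, and at 1652, 1716, 1550 and 1833 CPM in P4M clones. The P4M clones were above all others, and P28 overlapped with Fgfr3-WT. By edgeR, the log2 difference was 0.85 (SE 0.163, adjusted p = 0.0011) in P4M and 0.43 (SE 0.155, adjusted p = 0.0418) in P28. The call in P28 was lost in 9 of 14 leave-one-out fits, with adjusted p up to 0.117 without P28 clone 4, and in the fit of the 2 groups alone (0.105).

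Itgb5, a partner of Itgav, stood at 365, 614, 647, 783 and 642 CPM in Fgfr3-WT, at 360, 256, 316, 576 and 373 CPM in P28, and at 373, 383, 324 and 343 CPM in P4M clones. Fgfr3-WT clone 1 was as low as the cKO clones and P28 clone 4 was the highest cKO clone, so the groups overlapped. edgeR put the log2 fold change at -0.70 (SE 0.223, adjusted p = 0.0244) in P28 and -0.78 (SE 0.239, adjusted p = 0.0172) in P4M. The call in P28 was lost without Fgfr3-WT clone 4 or P28 clone 2 or 3, with adjusted p up to 0.0601, and also in both limma fits on TPM (adjusted p = 0.126 and 0.124) and in the fit of the 2 groups alone (adjusted p = 0.0544). In TPM, Itgb1 and Itgb5 made up nearly all of the beta members. The share of Itgb1 was 52.5% ± 6.30 (SD, n = 5) in Fgfr3-WT, 70.6% ± 4.14 (SD, n = 5) in P28 and 76.9% ± 1.73 (SD, n = 4) in P4M, and that of Itgb5 was 46.4% ± 7.0, 27.9% ± 4.54 and 22.2% ± 1.63 in the same clones.

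Itgb3, the other main partner of Itgav, was called higher in P4M (1.97, SE 0.672, adjusted p = 0.0283), from 1.86 ± 1.78 CPM in Fgfr3-WT (SD, n = 5) to 7.31 ± 1.57 CPM (SD, n = 4). In P28 it was at 5.61 ± 2.36 CPM (SD, n = 5), with 1.59 (SE 0.642, adjusted p = 0.0642). That difference was called by DESeq2, in both limma fits and without Fgfr3-WT clone 3. The call in P4M was lost without Fgfr3-WT clone 2 or 5 or P4M clone 4, with adjusted p up to 0.0637, and in the fit of the 2 groups alone (0.0662). Itgb2, the leukocyte beta chain, stood at 4.17, 4.13, 5.34, 3.13 and 2.26 CPM in Fgfr3-WT, at 1.12, 1.29, 1.27, 0.584 and 0.384 CPM in P28, and at 0.577, 1.57, 1.88 and 0.620 CPM in P4M clones. All Fgfr3-WT clones were above all cKO clones. On the log2 scale, the change came to -2.03 (SE 0.445, adjusted p = 0.00318) in P28 and -1.71 (SE 0.475, adjusted p = 0.0102) in P4M. Of the 2 blood markers tested, Cd68, a macrophage marker, was called lower in both cKO groups, at 3.55 to 54.3 CPM in Fgfr3-WT, 0.990 to 2.10 CPM in P28 and 1.20 to 5.61 CPM in P4M clones. The other, the macrophage receptor gene Csf1r, was called higher in P28 (1.81, SE 0.635, adjusted p = 0.0366), with means of 0.223 CPM in Fgfr3-WT and 0.779 CPM in P28. Ptprc and Spi1, which mark blood cells, were at or near 0 in all 14 clones (at most 0.154 and 0.0923 CPM). The summed CPM of the 10 blood markers was 3.75 to 54.5, 1.79 to 2.86 and 1.75 to 6.95 in the 3 groups, over the 8 of them in the count table, and their part in the fall of Itgb2 was not tested.

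The 11 tested members called in no comparison were Itga2b, Itga4, Itga10, Itgav, Itgb4, Itgb7, Itgb8, Lama4, Lama5, Lamb2 and Lamb3. Lama4 lay between 7.76 and 209 CPM and Lama5 between 0.285 and 45.7 CPM, and the groups overlapped. Itgb4, Itgb7 and Itgb8, the partners of epithelial, leukocyte and mixed integrins, stayed at or below 15.5 CPM. Itgb6, known from epithelium, reached at most 0.392 CPM, and Lamc3 at most 0.167 CPM.

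The partners of the members were followed in 2 lists, chosen as pathway genes. Of 33 tested genes of the focal adhesion list, the cytoplasmic complex that integrins assemble, 15 were called higher and 2 lower in P28, and 15 higher and 5 lower in P4M. That is 51.5% and 60.6%, beside 38.9% and 45.9% of all genes (19.2% and 22.3% higher, 19.7% and 23.6% lower). The median log2 fold change was 0.57 and 0.29, beside -0.02 and -0.06. Fblim1, an adaptor between filamin and kindlin, rose by 6.11 (SE 0.826, adjusted p = 0.000171) in P28 and 5.76 (SE 0.826, adjusted p = 0.000182) in P4M. It stood at 0.0326 to 2.26 CPM in Fgfr3-WT and at 25.0 to 63.8 CPM in cKO clones. Vcl, which encodes vinculin, rose by 3.12 (SE 0.19, adjusted p = 5.76e-07) and 2.33 (SE 0.19, adjusted p = 7.33e-06).

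Vcl had 59.2 to 99.7 CPM in Fgfr3-WT, 532 to 924 CPM in P28 and 337 to 462 CPM in P4M clones, with no overlap. Lower in P28 were Itgb1bp1 (-0.62, SE 0.21, adjusted p = 0.0325) and Sharpin (-0.45, SE 0.143, adjusted p = 0.0246), both known as brakes on integrin activation. The largest falls in P4M were those of the cytoskeletal linker Tns1 (-3.65, SE 0.555, adjusted p = 0.000266) and of Lims2 (-1.85, SE 0.481, adjusted p = 0.00703), a partner of integrin-linked kinase. In P4M against P28, 7 genes of the list were lower and 0 higher (21.2% called). Of all genes, 7.22% were called in either direction, 3.88% lower and 3.34% higher. Tns1 (-3.74, SE 0.557, adjusted p = 0.00477) and Lims2 (-2.68, SE 0.498, adjusted p = 0.0103) led the falls in the list. Tns1 stood at 4.40 to 12.1 CPM in P4M and at 42.4 to 192 CPM in the other clones.

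Of 24 tested basement membrane partners, 11 were higher and 2 lower in P28 (54.2%, beside 38.9% of all genes), and 9 higher and 2 lower in P4M (45.8%, beside 45.9%). The median log2 fold change was 1.07 and 0.24. The largest rises in P28 were those of Frem1 (6.31, SE 1.5, adjusted p = 0.00522), a matrix protein of epithelial basement membranes with only 4 counts over the Fgfr3-WT clones, and of the type IV collagen gene Col4a1 (5.09, SE 1.36, adjusted p = 0.0102). P28 clone 3 gave 532 of the 636 counts of Frem1 in P28, and the groups overlapped. Col4a1 was at 0.195 to 58.0 CPM in Fgfr3-WT, 139 to 1123 CPM in P28 and 13.4 to 724 CPM in P4M clones. In P4M the largest rises were those of Col15a1 (6.76, SE 1.35, adjusted p = 0.0015) and Fbln1 (4.69, SE 0.811, adjusted p = 0.000591), which encode a basement membrane collagen and the matrix glycoprotein fibulin.

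Smoc1 and Smoc2, calcium-binding matrix proteins, were the genes of that list called lower, with log2 differences of -4.48 (SE 1.55, adjusted p = 0.0353) and -3.17 (SE 0.558, adjusted p = 0.000867) in P28 and of -4.58 (SE 1.72, adjusted p = 0.0429) and -2.29 (SE 0.585, adjusted p = 0.00662) in P4M. In P4M against P28, 2 of the 24 were lower and 0 higher (8.33%, beside 7.22% of all genes in either direction and 3.88% lower). They were Frem1 (-6.46, SE 1.60, adjusted p = 0.03) and Pxdn (-2.29, SE 0.575, adjusted p = 0.0311), the enzyme that crosslinks type IV collagen. Among 3 tested integrin and laminin relatives outside the members, Itgbl1 was lower in P4M (-5.32, SE 1.67, adjusted p = 0.0196).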

How the data were processed

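RNA from 14 cultured clones was made into SMART-Seq v4 and Nextera libraries, which do not mark strand, and sequenced in single-end reads. By the methods and the submitters' processing notes, the authors aligned reads to mm10 with TopHat and Bowtie2 and counted unambiguously mapped reads with HTSeq; versions are not given in the sources used here. The count table, as deposited by the authors, holds raw counts for 30503 genes. The TPM table, also deposited by the authors, holds values per transcript length that sum to 999999 to 1000001 per clone, and was used for chain shares and as an alternative.

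Groups came from the labels, and replicate numbers are running numbers. Genes were kept by filterByExpr, which left 17358. Libraries were scaled by TMM, and edgeR 4.0.16 (R 4.3.3) fitted a robust quasi-likelihood model to all 14 clones. P values were adjusted by Benjamini and Hochberg over all genes tested and called at an FDR of 0.05. No term for the number in the sample names could be fitted. The script was tested on simulated data. Alternatives used DESeq2 1.42.0, limma 3.58.1 on log2(TPM + 1) and log2(TPM + 0.1), other scalings and filters, and fits without each clone.

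The members and the lists were chosen with earlier results of these data known. Values per clone are given for the 14 members with the lowest adjusted p, other called members are given by mean and SD, and the rest by range. From each list, the 2 called genes with the largest change in each direction were named, except for 1 gene that is not reported here. Col1a1, Spp1, Matn3, Lepr, Ebf3, Foxc1, Cdh1, Kdr, Vwf, Cd68, Csf1r, Ptprc, Spi1 and Sp7 are given as markers beside a result, a choice made with their values known. Coordinates are GENCODE M21 (GRCm38, the same build as mm10) and promoters are RefSeq (GRCm38.p6). Limits for a count of 0 cover counting error only, since these reads carry no molecular identifiers. The deposited tables of depth-normalized, expected, FPKM and rlog values were not used. Figures were drawn with matplotlib.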

Additional observations from a re-analysis of the deposited data

Results flagged for a closer look

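For 4 members the 2 cKO groups differed in their change from Fgfr3-WT, by the test of P4M against P28 itself (edgeR, adjusted over all genes). The difference was -5.52 for Itga8 (adjusted p = 0.0107), -3.15 for Nid2 (adjusted p = 0.0334), -2.17 for Itga1 (adjusted p = 0.00895) and -1.19 for Itga5 (adjusted p = 0.00895), each on the log2 scale and each lower in P4M.

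A clone far from the rest of its group, by Dixon's ratio of gap to range, was found 9 times in 96 groups of 4 or 5 clones (32 members in 3 groups). Chance flags about 1 in 20 groups where values follow a normal curve. CPM was used here without a log, so that rate cannot be taken as the rate for these values. In Fgfr3-WT these were clone 1 for Itga10 (533 CPM, next 126) and Itgb7 (12.5 CPM, next 2.59), clone 2 for Itga7 (30.4 CPM, next 6.93) and clone 3 for Lamb3 (6.43 CPM, next 1.05). In P28 they were clone 4 for Itga5 (322 CPM, next 221) and clone 5 for Itga4 (2.41 CPM, next 1.13). In P4M they were clone 2 for Itga3 (46.8 CPM, the lowest, next 120) and for Itga4 (1.12 CPM, next 0.254), and clone 4 for Itga6 (141 CPM, next 93.2).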

How the results depend on the processing

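Of 32 called member comparisons, recomputed in 726 alternative values, 659 kept direction and call, 67 lost the call and 0 turned direction; 20 were called in every alternative run and 22 in every fit that left out 1 clone. With 1 clone left out, the count of members called in P28 against Fgfr3-WT ranged from 9 (without P28 clone 3) to 14, and in P4M against P28 from 3 to 8 (without Fgfr3-WT clone 1). With at least 10 counts in every clone, which tests fewer genes, members called were 9 in P28 and 7 in P4M against P28. That last count was 10 by DESeq2, 12 in a fit of the 2 groups alone, and 10 and 9 by limma on log2(TPM + 1) and log2(TPM + 0.1), and the cause was not tested.

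For the focal adhesion list, a minimum log2 fold change of 1 left 13 calls for P4M set against Fgfr3-WT and 3 when set against P28, where the fit of 2 groups gave 11 and fits without 1 clone 4 to 8. Basement membrane partners called with at least 10 counts in every clone were 5 in P28, 4 in P4M and 1 in P4M against P28. In P4M they were 6 with 2 groups and 7 by limma on log2(TPM + 1). In P4M against P28 they were 4 by DESeq2, 1 with no filter and 0 to 3 without 1 clone, with 0 calls without P28 clone 1, 2, 3 or 4 or P4M clone 1, 2 or 4. Of the other integrin and laminin genes, DESeq2 called 3 in P28 and 2 in P4M against P28, limma on log2(TPM + 0.1) 2, 0 (P4M) and 1, limma on log2(TPM + 1) 0 in P4M, and the fit of 2 groups 1 in P4M against either other group. Without 1 clone these counts were 1 to 2, 1 to 2 and 0 to 1.

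Uncalled differences that turned sign were Itga1 in P28 (0.27 and 0.30 by limma with either pseudocount, -0.56 to 0.03 without 1 clone), Itga6 in P28 (0.06 by both, -0.55 to 0.11), Itga8 in P28 (-0.11 to 0.77 without 1 clone), Nid2 in P4M (-0.25 to 0.45) and Lamc1 in P4M against P28 (-0.05 by both limma fits). The limma fits put the median log2 difference of all genes at 0.2 and 0.31 in P28 and at -0.14 and -0.19 in P4M against P28. Without length, shares in CPM were 59.8%, 76.2% and 81.9% for Itgb1 and 38.9%, 22.3% and 17.3% for Itgb5 in Fgfr3-WT, P28 and P4M. No paired analysis was possible because the replicate numbers are running numbers that tie no clones together. Genotype and the number in the sample names cannot be told apart. Values near the 3-count limit (Npnt, Itga9 and Lama3 in Fgfr3-WT, Itga2 in P4M) rest on few counts.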
